A study of Mus musculus with 6 samples.

Results

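Amino acid carriers are membrane proteins that move amino acids into and out of cells and between the compartments of a cell. Their transcripts were followed here in regenerating mouse liver as a list of 34 genes named by symbol, drawn up with earlier results of these data known. The list was split by role into 8 growth-linked carriers, 7 hepatocyte uptake carriers, 2 mitochondrial carriers, 5 lysosomal and other intracellular carriers, 5 proteins of the cystinuria complex and other heavy chain partners, and 7 remaining carriers. All 34 had a probe on the array, out of 20018 named genes, and 29 of them were tested among 13582 genes tested. A gene was tested when every array of PVBL, of sham or of both had a probe for it well above background.

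The samples were livers of male C57BL/6J mice, with no genetic change stated. In 3 of them the left branch of the portal vein had been ligated (PVBL), and the right lobe, which keeps its portal flow and grows, was taken on day 3. The other 3 were right lobes from mice that had a sham operation, also taken on day 3. The labels number the samples 1 to 3 within each group without stating that these were separate mice, so the p-values measure only the spread between these samples. Total RNA was hybridised to single-colour Agilent arrays, and a level here is the log2 signal of a probe minus the 75th percentile of its array. A level of 0 is therefore the 75th percentile. Levels of different probes were not compared with each other, except that the marker sums below add linear signals, so bright probes weigh most in them. In whole tissue, fewer cells of a type and less RNA per cell cannot be told apart.

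Amino acid uptake in liver feeds protein synthesis, the urea cycle, glucose production and the export of plasma proteins. System A carriers bring in small neutral amino acids with sodium and can be raised by hormones or by a shortage of amino acids, system N carriers move glutamine, histidine and asparagine, and cationic carriers move arginine and lysine. Exchangers built from a light chain and a heavy chain (Slc3a2 or Slc3a1) swap one amino acid for another. In many dividing cells Slc7a5, Slc3a2 and Slc1a5 supply leucine and glutamine for growth, and carriers on the lysosome report amino acids to mTORC1, a kinase complex that controls growth.

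All arrays were on 1 slide with 1 scan. The sham samples lay in slide row 1 and the PVBL samples in row 2, so row and surgery cannot be told apart. Arrays correlated at 0.982 to 0.992 within PVBL, 0.991 to 0.996 within sham and 0.948 to 0.960 between the groups, over the genes tested. PVBL and sham lay apart on the first principal component, and PVBL 3 lay away from PVBL 1 and PVBL 2 on the second, which held 11.9% of the variance. Genes with an adjusted p (limma, Benjamini-Hochberg over the genes tested) below 0.05 are named as called, and 4476 were, 2053 higher and 2423 lower in PVBL. Scaling on the median gave 2639 higher and 1559 lower, and scaling on 8 spike-in control probes gave 1614 higher and 186 lower. The median difference over all genes was -0.10 with the 75th percentile, -0.04 with quantile normalization, 0.03 with median scaling and 0.33 with spike-in scaling. Changes below are relative to the 75th percentile.

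Slc1a5, Slc7a1 and Slc43a2 rose after PVBL, and Slc38a4, Slc38a3, Slc3a1, Slc6a12, Slc38a2, Slc7a2 and Slc38a10 fell. The 10 called carriers were 34.5% of the 29 tested, against 33.0% of all genes called either way, so the number of calls did not set the carriers apart from other genes. The share called higher was 10.3%, against 15.1% of all genes, and the share called lower was 24.1%, against 17.8%. The PVBL and sham samples did not overlap for 16 of the 29, or 55.2%, against 51.5% of all genes (Slc7a5 over 5 arrays). The median difference of the 29 was -0.25, against -0.10 over all genes. The 2 main role groups differed in which way their called members went. Of 7 growth-linked carriers tested 2 rose and 1 fell (median difference 0.10), while of 7 hepatocyte uptake carriers none rose and 4 fell (median difference -0.61). That contrast is a description of small lists and was not tested. The growth-linked median was -0.23 without PVBL 3 and -0.14 with array weights, so its sign was not stable.

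**Figure D1:**
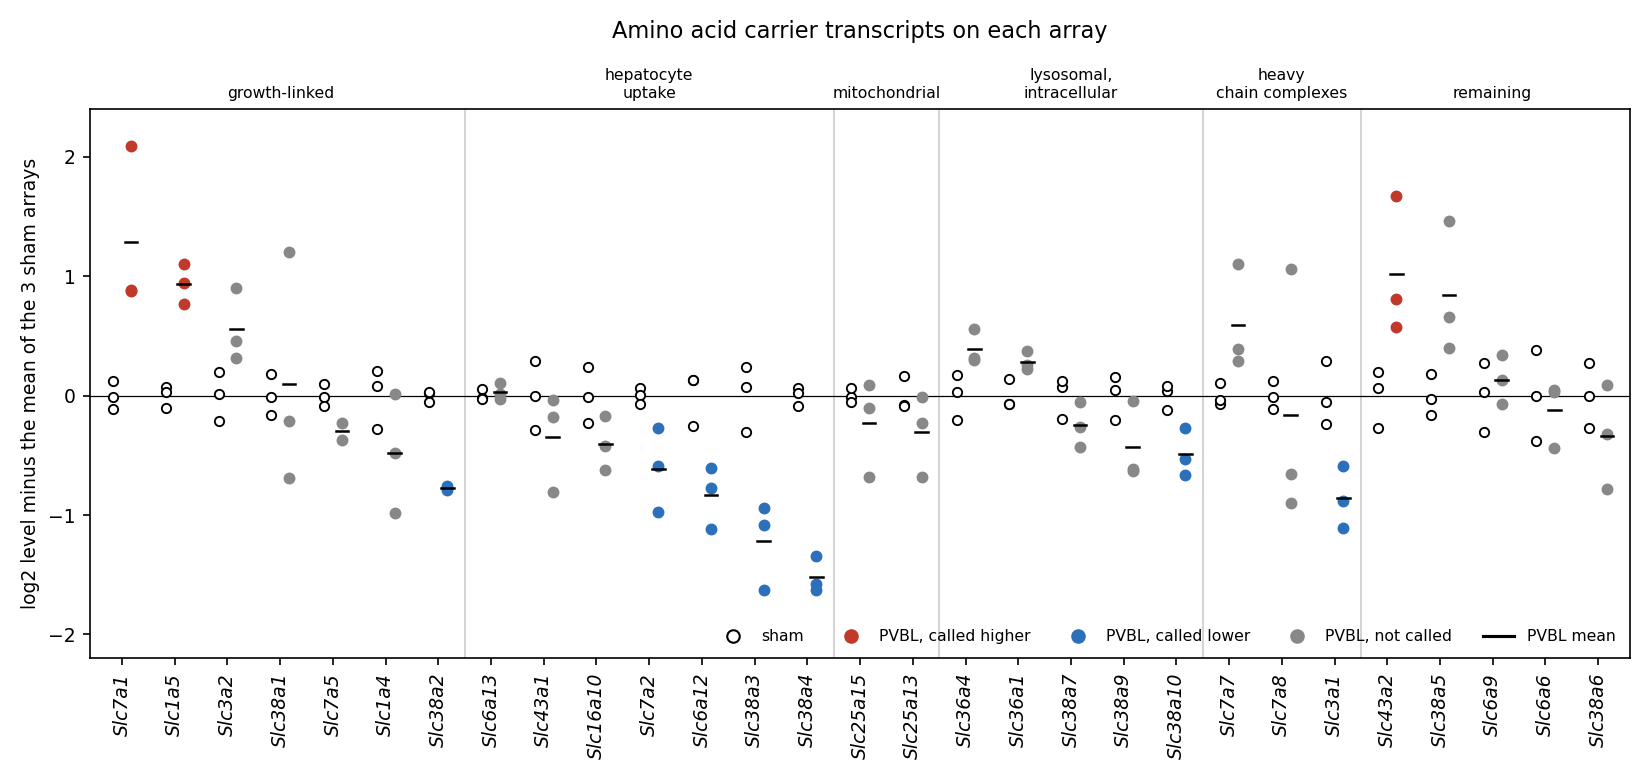
Each point is 1 array: the log2 level of a carrier minus the mean of its 3 sham arrays (vertical axis), for the 29 carriers tested, in order of difference within each role group (horizontal axis); open circles are sham, filled circles PVBL (red called higher, blue called lower, grey not called) and bars the PVBL mean. The PVBL points of Slc38a2 lie almost on top of each other below sham, while those of Slc7a1, Slc38a1 and Slc7a8 are spread out because PVBL 3 is the highest of them.

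Among the growth-linked carriers, Slc1a5, a sodium-dependent exchanger that brings in glutamine and other neutral amino acids, had the steadiest rise. Its level was -1.32, -1.50 and -1.17 in PVBL 1 to 3 and -2.19, -2.24 and -2.37 in sham 1 to 3. Every PVBL value lay above every sham value. The difference was 0.94 ± 0.13 (SE, n = 3 against 3), or 1.92-fold (adjusted p = 0.00304), and a second probe gave 0.72 (adjusted p = 0.0128). Slc1a5 was called higher under all 16 alternative settings, with values from 0.46 with normexp background correction to 1.37 with spike-in scaling. Here and below, the 16 include the deposited value table, in which 97.5% of genes were called. Its rows were chosen on the difference between the groups, so a call there is no support.

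Slc7a1, the high-affinity cationic carrier that brings arginine and lysine into many growing cells and is low in resting hepatocytes, had the largest difference of the carriers called higher. Its level was -1.06, -1.05 and 0.15 in PVBL 1 to 3 and -1.94, -1.81 and -2.05 in sham 1 to 3. The groups did not overlap, but PVBL 3 stood more than 1 log2 unit above the other PVBL samples. The difference was 1.28 ± 0.32, or 2.43-fold (adjusted p = 0.0233), and 0.88 without PVBL 3. The call of Slc7a1 was lost without sham 1 (1.28), sham 2 (1.34) or sham 3 (1.23), and with no filter on dim probes (adjusted p = 0.0564). With normexp the difference was 0.76 and still called.

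Slc3a2, the heavy chain (CD98) that carries Slc7a5 and other light chains to the cell surface, missed the threshold. It had levels of 3.84, 4.28 and 3.69 in PVBL 1 to 3 and 3.58, 3.39 and 3.16 in sham 1 to 3. Its PVBL values were all above its sham values, by a narrow margin between PVBL 3 and sham 1. The difference was 0.56 ± 0.19, with a 95% interval of 0.10 to 1.01 (adjusted p = 0.0623). Slc3a2 was called higher with median scaling (0.69), quantile normalization (0.60), normexp (0.64), array weights (0.46) and without PVBL 3 (0.68).

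Slc7a5, the light chain that exchanges leucine and other large neutral amino acids, was not called. Its spot was marked as an outlier on PVBL 1, so the fit used 5 arrays: -2.14 and -2.29 in PVBL 2 and 3, and -1.82, -1.92 and -2.00 in sham 1 to 3. Both PVBL values lay below the sham values. The difference was -0.30 ± 0.14, with a 95% interval of -0.64 to 0.04 (adjusted p = 0.150), and a second probe of Slc7a5 gave 0.02 (adjusted p = 0.917).

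Slc38a2, the system A carrier that many cells raise when amino acids run short or the cell shrinks, fell after PVBL. Its level was 3.48, 3.47 and 3.50 in PVBL 1 to 3 and 4.28, 4.20 and 4.29 in sham 1 to 3. Replicates differed by less than 0.1 in each group and the groups lay far apart. The difference was -0.77 ± 0.11, or 1.71-fold lower (adjusted p = 0.00268). Slc38a2 kept its call under 15 of 16 alternatives and lost it with spike-in scaling (-0.34, adjusted p = 0.689).

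Slc38a1, the system A carrier of many tissues other than adult liver, gave no call. Its level was -1.92, -2.40 and -0.51 in PVBL 1 to 3 and -1.87, -1.53 and -1.72 in sham 1 to 3. PVBL 3 was the highest of the 6 and PVBL 1 and 2 the lowest, so the groups overlapped. The difference was 0.10 ± 0.45, with a 95% interval of -0.95 to 1.15 (adjusted p = 0.878), and -0.45 without PVBL 3. Slc1a4, an exchanger of alanine, serine and cysteine, had levels of 5.60, 6.09 and 5.10 in PVBL and 6.16, 5.80 and 6.28 in sham, which overlapped (-0.48 ± 0.26, adjusted p = 0.194). Slc7a6, a light chain that exchanges cationic for neutral amino acids, was not well above background in any sample.

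Among the carriers of hepatocyte uptake, Slc38a4, the system A carrier of adult liver, had the largest fall of the list. Its level was 4.89, 4.66 and 4.60 in PVBL 1 to 3 and 6.30, 6.14 and 6.26 in sham 1 to 3. The groups were more than 1 log2 unit apart with little spread within either. The difference was -1.51 ± 0.13, or 2.86-fold lower (adjusted p = 0.000329), and -1.08 with spike-in scaling, where the call was lost (adjusted p = 0.0568). It was the only 1 of the 16 alternatives in which Slc38a4 was not called.

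Slc38a3, the system N carrier that moves glutamine, histidine and asparagine across the hepatocyte membrane, also fell. Its level was 6.00, 5.86 and 5.31 in PVBL 1 to 3 and 7.01, 7.18 and 6.63 in sham 1 to 3. Number 3 was the lowest sample of each group, and the groups did not overlap. The difference was -1.22 ± 0.23, or 2.32-fold lower (adjusted p = 0.00811). Slc38a3 lost its call with spike-in scaling alone among the 16 alternatives (-0.79, adjusted p = 0.223).

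Slc6a12, the carrier of betaine and GABA, fell while Slc6a13, a carrier of GABA and taurine, did not pass the test. The level of Slc6a12 was 4.33, 4.16 and 3.81 in PVBL 1 to 3 and 5.06, 5.06 and 4.68 in sham 1 to 3, without overlap. The difference was -0.83 ± 0.18, or 1.78-fold lower (adjusted p = 0.0147). The call of Slc6a12 was lost without sham 1 or sham 2 (-0.77 in both) and with spike-in scaling (-0.40). Slc6a13 had levels of 6.49, 6.40 and 6.36 in PVBL and 6.44, 6.36 and 6.35 in sham. These ranges overlapped, and the difference was 0.03 ± 0.11, with a 95% interval of -0.23 to 0.29 (adjusted p = 0.840).

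Slc7a2, the cationic carrier that in liver has a low-affinity form for arginine, fell by less. Its level was 1.42, 1.10 and 0.71 in PVBL 1 to 3 and 1.75, 1.69 and 1.62 in sham 1 to 3. The groups did not overlap, and the PVBL samples were spread over a wider range than sham. The difference was -0.61 ± 0.19, or 1.53-fold lower (adjusted p = 0.0436). The call of Slc7a2 was lost under 9 of 16 alternatives: without PVBL 2 (-0.62), PVBL 3 (-0.43), sham 1 (-0.58), sham 2 (-0.61) or sham 3 (-0.65), with median scaling (-0.48), spike-in scaling (-0.18), normexp (-0.49) or no filter (adjusted p = 0.0930). Its difference ran opposite to that of Slc7a1, the other cationic carrier called.

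The other carriers of this group were not called. Slc43a1, a carrier of branched-chain amino acids, differed by -0.34 ± 0.24 (adjusted p = 0.304). Slc16a10, which carries aromatic amino acids, differed by -0.40 ± 0.18 (adjusted p = 0.120), and a second probe of it gave 0.33 (adjusted p = 0.445), so its probes disagreed in sign.

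**Figure D2:**
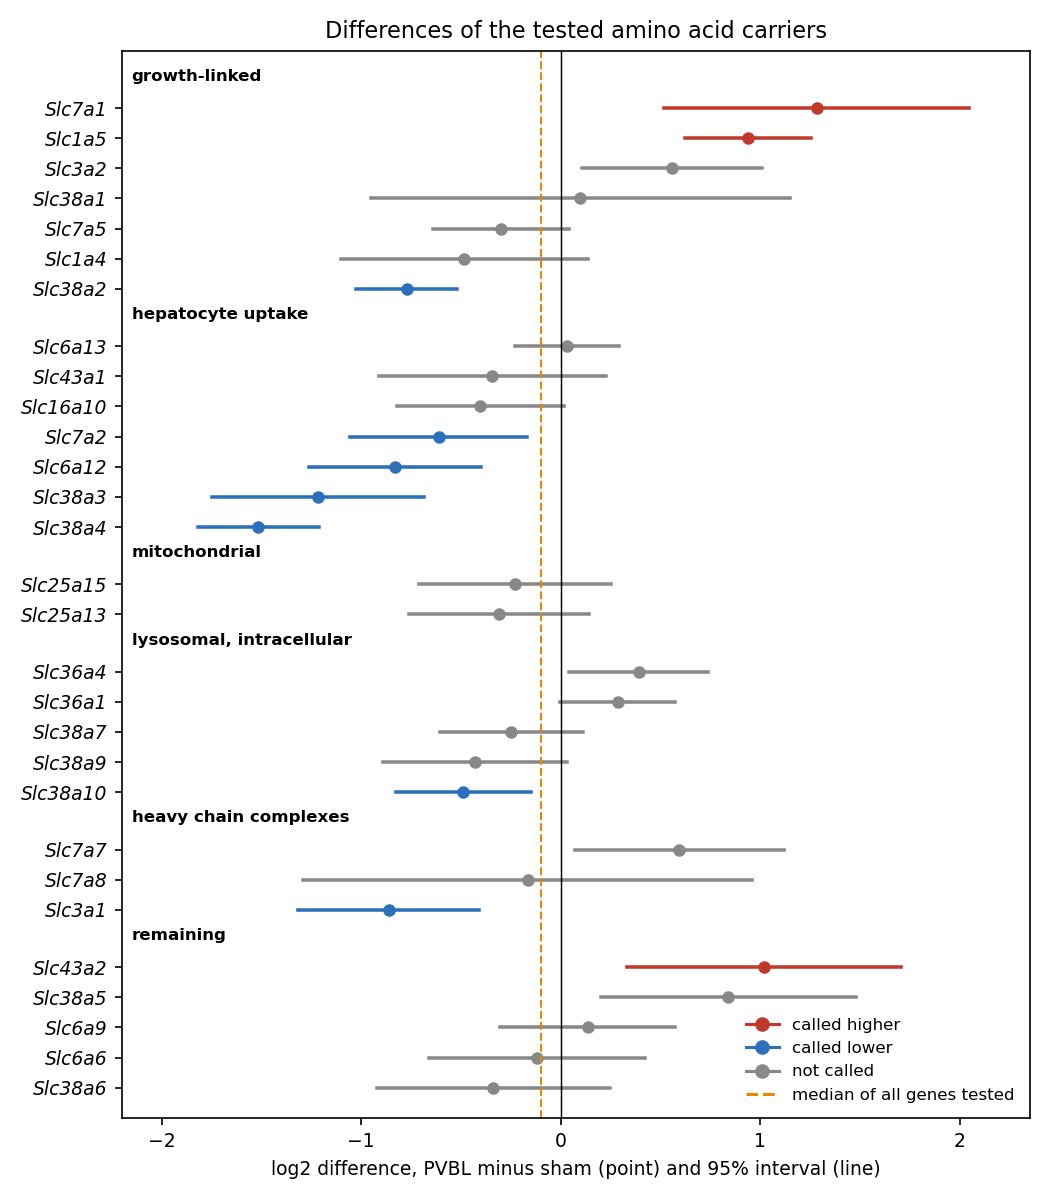
Log2 difference of PVBL minus sham (points, horizontal axis) with its 95% interval (lines) for the 29 carriers tested, by role group; red was called higher, blue lower and grey not called, and the dashed line is the median of all genes tested at -0.10. Slc38a4 is farthest to the left at -1.51 and Slc7a1 farthest to the right at 1.28, and the widest intervals belong to carriers in which PVBL 3 stood apart (Slc38a1, Slc7a8, Slc7a1).

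Some carriers that differed in response are neighbours in the genome. In RefSeq (GRCm38.p6), Slc38a1, Slc38a2 and Slc38a4 follow each other on chromosome 15, and Slc6a13 and Slc6a12 lie side by side on chromosome 6, with 0 protein-coding genes between neighbours. Their log2 differences were 0.10, -0.77 and -1.51 along chromosome 15, and 0.03 and -0.83 along chromosome 6. Whether neighbours differed from each other was not tested. The bases just upstream of the start sites of both falling system A genes and of the chromosome 6 pair are shown to set these neighbours side by side, from RefSeq, GRCm38.p6, 5′ to 3′ on the strand of the gene.
Slc38a2, chr15:96699729-96699828, minus strand: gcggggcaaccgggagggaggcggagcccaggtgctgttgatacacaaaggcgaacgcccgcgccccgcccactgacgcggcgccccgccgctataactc
Slc38a4, chr15:97055957-97056056, minus strand: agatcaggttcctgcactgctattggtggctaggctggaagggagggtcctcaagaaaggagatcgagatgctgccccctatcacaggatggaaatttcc
Slc6a13, chr6:121300188-121300287, plus strand: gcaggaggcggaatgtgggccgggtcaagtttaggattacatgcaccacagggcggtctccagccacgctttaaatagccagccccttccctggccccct
Slc6a12, chr6:121342474-121342573, plus strand: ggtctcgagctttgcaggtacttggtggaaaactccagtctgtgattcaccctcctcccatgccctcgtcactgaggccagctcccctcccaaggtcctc

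Promoter windows, from 250 bases before to 50 bases after a start site, were found for 28 of the 34 carriers. They were searched on both strands for CACGTG, an E-box that reads the same on both strands and is bound by MYC and by the lysosomal regulators of the TFEB family, and for TGATGNAA, the C/EBP-ATF element bound by ATF4. These letters do not overlap each other. CACGTG stood in the windows of 6 of 28 carriers, or 21.4%, against 8.09% of 27025 genes with a window. The 6 were Slc43a1, Slc25a13, Slc25a15, Slc36a1, Slc38a7 and Slc38a5, and none of them was called. TGATGNAA stood in 2 of 28, or 7.14%, against 4.51% of all genes: Slc1a4 and Slc7a7, neither called. The 7 called carriers with a window held neither set of letters there. A match is a description of the sequence and not a site of binding. The stretches with the matches in Slc36a1 (2 E-boxes), Slc1a4 and Slc7a7 are shown with the searched letters in capitals, and each runs to 10 bases after the start site. Slc7a7 had further matches that are not shown, 1 of them 141 bases before the same start and 1 in the window of its other listed start.
Slc36a1, chr11:55204240-55204349, plus strand: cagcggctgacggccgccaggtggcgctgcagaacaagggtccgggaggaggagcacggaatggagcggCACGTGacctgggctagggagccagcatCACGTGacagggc
Slc1a4, chr11:20332704-20332753, minus strand: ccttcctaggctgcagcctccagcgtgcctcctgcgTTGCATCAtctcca
Slc7a7, chr14:54417935-54417984, minus strand: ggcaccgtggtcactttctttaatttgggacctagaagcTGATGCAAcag

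The mitochondrial carriers were not called. Slc25a13 exchanges aspartate for glutamate across the inner mitochondrial membrane and so supplies aspartate to the urea cycle. Its level was 5.03, 4.81 and 4.36 in PVBL 1 to 3 and 5.21, 4.96 and 4.96 in sham 1 to 3, with overlap, and the difference was -0.31 ± 0.19 (adjusted p = 0.248). Slc25a15, the ornithine carrier of the urea cycle, had levels of 1.32, 1.51 and 0.74 in PVBL and 1.41, 1.48 and 1.37 in sham. Its groups also overlapped, with a difference of -0.23 ± 0.20 (adjusted p = 0.412). Both differences turned above 0 with spike-in scaling (0.12 for Slc25a13 and 0.20 for Slc25a15).

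Of the lysosomal and other intracellular carriers only Slc38a10 was called. Its level was 0.93, 1.19 and 0.80 in PVBL 1 to 3 and 1.50, 1.34 and 1.54 in sham 1 to 3. The groups did not overlap, with PVBL 2 and sham 2 closest to each other. The difference was -0.49 ± 0.14, or 1.40-fold lower (adjusted p = 0.0375). The call of Slc38a10 was lost under 9 of the alternatives: without PVBL 1 (-0.47), PVBL 3 (-0.40), sham 1 (-0.47), sham 2 (-0.55) or sham 3 (-0.45), with median scaling (-0.36), spike-in scaling (-0.06), the replicate number as a block (adjusted p = 0.0798) or no filter (adjusted p = 0.0839).

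The other intracellular carriers pointed in different directions. Slc38a9, the arginine-sensing carrier of the lysosome that acts on mTORC1, differed by -0.43 ± 0.20 (adjusted p = 0.132) and was called lower without PVBL 1 (-0.62). Slc38a7, which exports glutamine from lysosomes, differed by -0.25 ± 0.15 (adjusted p = 0.242). Slc36a4, a carrier of the proton-coupled family, differed by 0.39 ± 0.15 (adjusted p = 0.0821) with no overlap between groups. Slc36a1, the proton-coupled carrier of small amino acids on lysosomes, differed by 0.28 ± 0.12 (adjusted p = 0.113), while its second probe gave -0.52 (adjusted p = 0.0457). The direction of Slc36a1 was therefore not settled by these arrays.

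In the cystinuria complex, the heavy chain Slc3a1 carries the light chain Slc7a9 to the membrane, where they take up cystine and cationic amino acids. Slc3a1 fell. Its level was 2.86, 3.15 and 2.64 in PVBL 1 to 3 and 4.03, 3.69 and 3.51 in sham 1 to 3. The groups did not overlap. The difference was -0.86 ± 0.19, or 1.82-fold lower (adjusted p = 0.0154), and the call of Slc3a1 was lost without sham 1 (-0.72) and with spike-in scaling (-0.43). Slc7a9 was not well above background in any sample, so no fold is given for it. Its level was -4.49, -4.38 and -4.61 in PVBL 1 to 3 and -6.33, -6.20 and -5.92 in sham 1 to 3. These groups did not overlap, and Slc7a9 was called higher with no filter on dim probes. Signals that near background do not settle its direction. Slc3a1 is abundant in kidney tubule. Of 3 kidney tubule markers tested 1 was called lower (33.3%, against 17.8% of all genes) and none higher. The marker called lower was Slc22a6 (-0.59, adjusted p = 0.0482), which was well above background on every array. Slc34a1 and Slc5a2 were so on all sham arrays and some PVBL arrays, and Lrp2, Umod and Kap on none. Since Slc34a1 and Slc5a2 entered the test only through their sham signal, their tests are no support for or against a difference. Whether kidney tissue had a part in the level of Slc3a1 was not tested.

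The light chains that pair with Slc3a2 at other sites were not called. Slc7a7, which exports cationic amino acids in exchange for neutral ones, had levels of 1.91, 1.82 and 2.62 in PVBL 1 to 3 and 1.63, 1.45 and 1.48 in sham 1 to 3. All PVBL values lay above sham, with PVBL 3 the highest. The difference was 0.59 ± 0.22 (adjusted p = 0.0788), and 0.34 without PVBL 3. Slc7a8, an exchanger of neutral amino acids, differed by -0.17 ± 0.48 (adjusted p = 0.806), with levels of -3.27, -3.51 and -1.55 in PVBL 1 to 3 and -2.72, -2.62 and -2.49 in sham. PVBL 3 lay above sham and the other PVBL samples below it, and without PVBL 3 Slc7a8 was called lower (-0.78, adjusted p = 0.00995). Slc7a10, a light chain for small neutral amino acids, was not well above background in any sample.

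Slc43a2, a carrier of branched-chain amino acids and phenylalanine, was the remaining carrier that rose. Its level was 0.39, 0.15 and 1.25 in PVBL 1 to 3 and -0.69, -0.22 and -0.36 in sham 1 to 3. The groups did not overlap, and PVBL 3 was again the highest. The difference was 1.02 ± 0.29, or 2.03-fold (adjusted p = 0.0352), and 0.69 without PVBL 3, where it was still called. The call of Slc43a2 was lost without PVBL 1 (1.12), sham 1 (0.89), sham 2 (1.12) or sham 3 (1.05), and with no filter (adjusted p = 0.0779). Its relative Slc43a1 was not called, with a difference of -0.34.

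Slc38a5, a system N carrier that takes up glutamine and serine, had levels of -3.75, -2.95 and -4.01 in PVBL 1 to 3 and -4.23, -4.44 and -4.57 in sham 1 to 3. Its signal was well above background on the 3 PVBL arrays but not on any of the sham arrays. Set against the lowest signal well above background, Slc38a5 was at least 1.53-fold higher in PVBL, and the fitted difference of 0.84 ± 0.27 missed the threshold (adjusted p = 0.0515). Slc38a5 entered the test only through its PVBL signal, so its test is no support for a difference, and normexp gave -0.02. Slc6a6, the taurine carrier, differed by -0.12 ± 0.23, Slc6a9, a glycine carrier, by 0.13 ± 0.19, and Slc38a6 by -0.34 ± 0.25, with adjusted p of 0.708, 0.601 and 0.323. Slc1a3, a glutamate carrier, was not well above background in any sample, and Slc1a1, another glutamate carrier, was so on PVBL 3 alone.

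**Figure D3:**
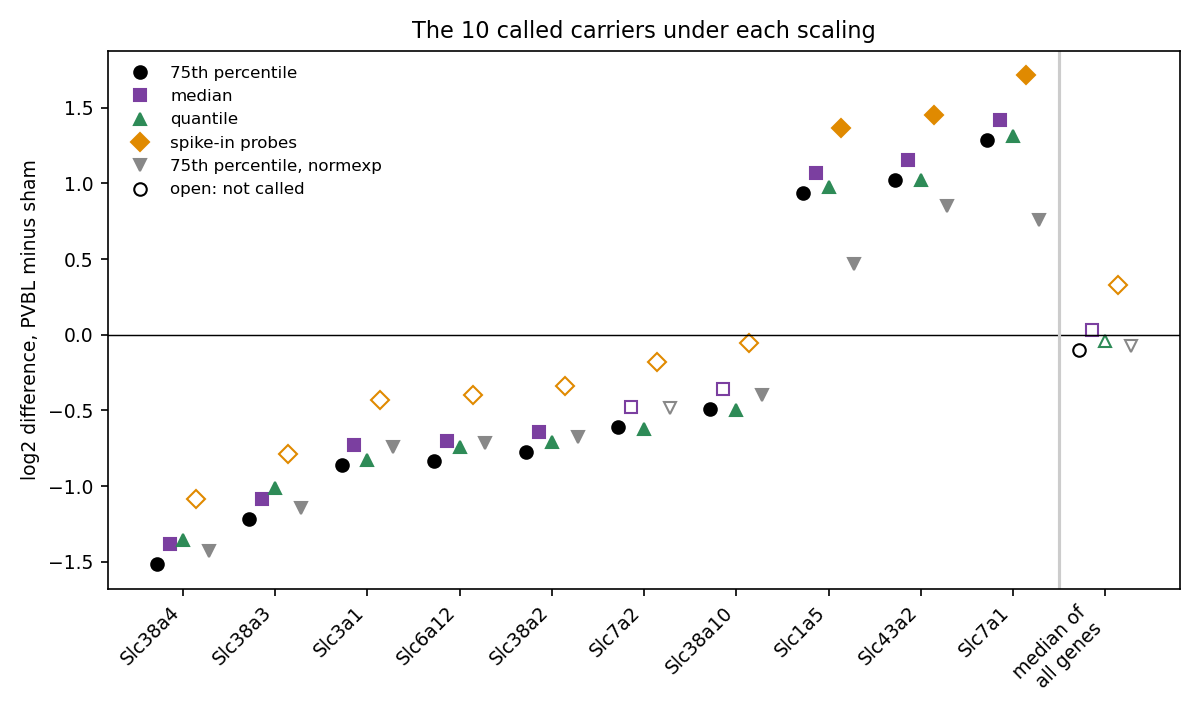
Log2 difference of PVBL minus sham (vertical axis) for the 10 called carriers and the median of all genes (horizontal axis) under 5 ways of scaling or background correction; filled symbols were called and open ones were not. The 3 carriers called higher keep filled symbols throughout, and the 7 called lower have open symbols with spike-in scaling, where the median of all genes is 0.33.

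The direction of the 10 called carriers was the same under each scaling, and their calls were not. With spike-in scaling none of the 29 was called lower, against 1.37% of all genes, and 4 were called higher, against 11.9%. With median scaling 6 carriers were called higher and 5 lower, against 19.4% and 11.5% of all genes. Quantile normalization gave 5 higher and 7 lower, against 17.2% and 15.9%, and array weights gave 5 and 7, against 19.8% and 25.3%. The carriers called higher under each of these settings include Slc38a5, which entered the test only through its PVBL signal, so its calls are no support. Signs of 9 uncalled carriers turned from below to above 0 with spike-in scaling: Slc43a1, Slc16a10, Slc25a13, Slc25a15, Slc38a7, Slc38a9, Slc7a8, Slc6a6 and Slc38a6. Relative to the median of all genes in the same scaling, Slc38a4, Slc38a3 and Slc38a2 stayed lower with spike-in scaling, at -1.08, -0.79 and -0.34 against 0.33.

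Amino acid carriers outside the list had more falls than rises. Of 47 such genes 19 were tested, 1 rose and 5 fell, with a median of -0.55. The shares called were 5.26% higher and 26.3% lower, against 15.1% and 17.8% of all genes, and the total of 31.6% was near the 33.0% of all genes. Slc6a8, the creatine carrier, rose 1.95-fold (0.96 ± 0.14, adjusted p = 0.00362) and was called under all 16 alternatives. Slc25a44, a mitochondrial carrier of branched-chain amino acids, fell 1.88-fold (-0.91 ± 0.16, adjusted p = 0.00684) and lost its call with spike-in scaling (-0.48). Slc25a38, a mitochondrial glycine carrier, Slc1a7, a glutamate carrier, and Slc15a4, a lysosomal carrier of histidine and peptides, fell by 0.62, 0.62 and 0.51, and each lost its call without sham 1 (-0.62, -0.63 and -0.46) and with spike-in scaling. Calls were also lost without PVBL 1 for Slc25a38 (-0.63) and Slc1a7 (-0.59), without PVBL 2 for Slc1a7 (-0.54), without sham 2 for Slc25a38 (-0.67) and Slc15a4 (-0.50), and without sham 3 for Slc25a38 (-0.57) and Slc1a7 (-0.52). Slc7a11, the cystine and glutamate exchanger, was well above background on PVBL 3 alone and was not tested.

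Enzymes that use the carried amino acids had falls and no rise. Of 14 genes of glutamine, arginine and urea cycle enzymes 13 were tested, none rose and 6 fell, with a median of -0.70. The share called lower was 46.2%, against 17.8% of all genes. Gls2, the liver glutaminase that splits glutamine, fell 3.76-fold (-1.91 ± 0.20, adjusted p = 0.000920) under every alternative. Otc (2.30-fold lower), Asl (2.20-fold) and Arg1 (1.82-fold), all of the urea cycle, fell with adjusted p of 0.00243, 0.00446 and 0.0163, and Glul, which makes glutamine, fell 2.07-fold (-1.05 ± 0.28, adjusted p = 0.0286). With spike-in scaling Otc (-0.77), Asl (-0.71), Arg1 (-0.44) and Glul (-0.62) were not called. The calls of Arg1 (-0.88 to -0.86) and Glul (-1.10 to -0.98) were each lost when 1 sham array was left out, whichever it was.

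Genes of the response to amino acid shortage did not move as a block. Of 22 genes 20 were tested, 5 rose and 2 fell, with a median of 0.09. The shares were 25% higher and 10% lower, against 15.1% and 17.8% of all genes, and the total of 35% was near background. The serine synthesis enzymes Psat1, Phgdh and Psph rose 11.5-fold, 2.63-fold and 2.39-fold (3.52, 1.39 and 1.26, with adjusted p of 7.84e-05, 0.00422 and 0.00318), under all 16 alternatives. Atf3, a stress transcription factor gene, rose by 2.81 (adjusted p = 0.00834). Aldh18a1, which makes the precursor of proline and ornithine, was well above background on the PVBL arrays and on none of the sham arrays. Aldh18a1 was at least 2.64-fold higher and lost its call with normexp (0.36). Although counted among the 5 rises, Aldh18a1 entered the test only through its PVBL signal, so its test is no support for a difference. Trib3, a pseudokinase target of ATF4, fell 2.17-fold (-1.12 ± 0.18, adjusted p = 0.00498) and lost its call with spike-in scaling (-0.69). Vldlr fell by 1.48 but lost its call without sham 1 (-1.30) and with spike-in scaling (-1.05). Atf4 itself, whose product acts mainly through its translation, differed by -0.42 ± 0.18 (adjusted p = 0.115). Asns, asparagine synthetase, had levels of 2.10, 3.51 and 2.36 in PVBL 1 to 3 and 1.00, 0.20 and 2.28 in sham 1 to 3. PVBL 1 lay below sham 3, so the groups overlapped (1.50 ± 0.57, adjusted p = 0.0830).

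**Figure D4:**
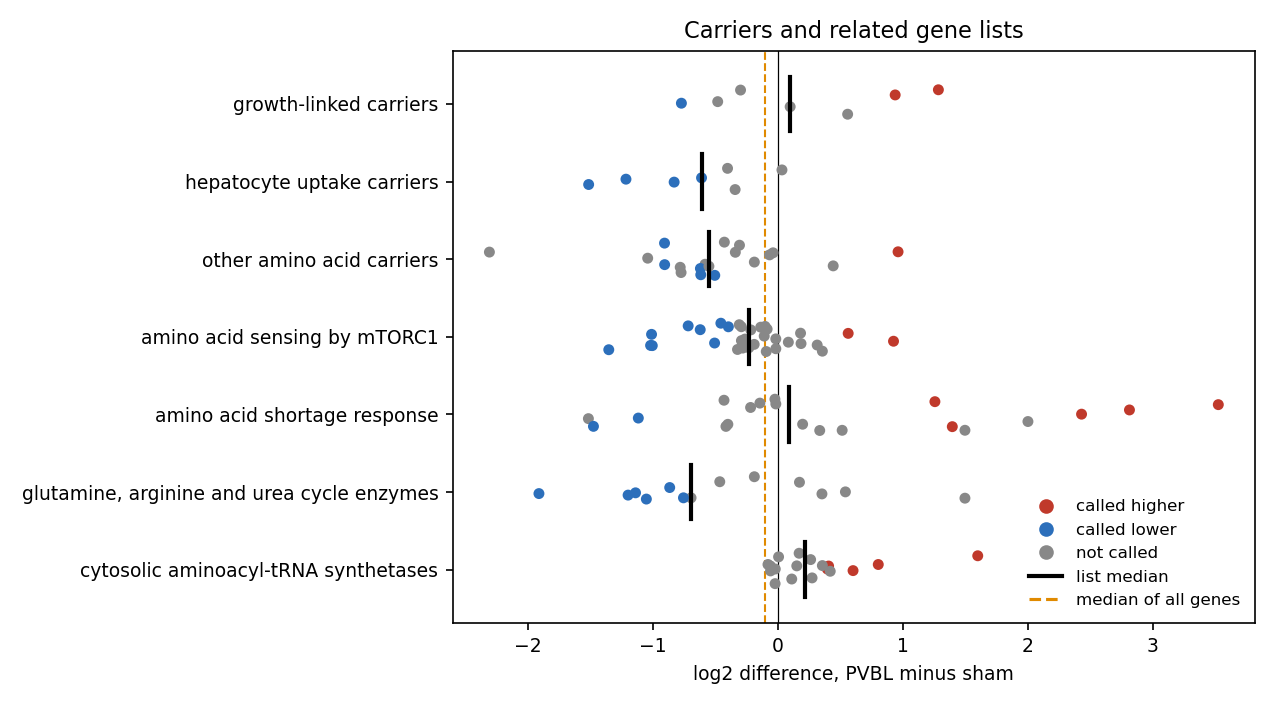
Log2 difference of PVBL minus sham (horizontal axis) for each tested gene of 2 carrier groups and 5 related lists; red was called higher, blue lower and grey not called, black bars are list medians and the dashed line is the median of all genes at -0.10. Hepatocyte uptake carriers and the glutamine, arginine and urea cycle enzymes have medians of -0.61 and -0.70, and growth-linked carriers one of 0.10.

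Markers of several cell types differed between the groups. Of all genes tested, 15.1% were called higher and 17.8% lower. All 7 proliferation markers tested rose, and their summed level, relative to the 75th percentile of each array, was 101 to 160 in PVBL and 1.56 to 1.77 in sham. Of 8 hepatocyte markers tested 2 fell (25%) and none rose, with a summed level of 4834 to 6142 against 6845 to 7752. The summed sinusoidal endothelium markers were at 60.6 to 90.8 against 128 to 136, with 2 of 9 lower (22.2%). The hepatocyte and sinusoidal endothelium shares were thus near the share of all genes called lower. The cholangiocyte markers were at 7.19 to 21.8 against 2.33 to 4.74, with 3 of 6 higher (50%) and 1 lower (16.7%). Of 11 hepatic stellate cell markers 4 rose (36.4%) and 1 fell (9.09%), and the summed level was 120 to 151 against 125 to 131. Among those called, Col1a1, a collagen gene, was 4.64-fold and Acta2, smooth muscle actin, 3.36-fold higher, while Lrat fell (-1.23, adjusted p = 0.0182). Of the stellate markers not called, Dcn, Des, Pdgfrb and Hand2 had differences below 0, and Reln and Lum above 0. Of 7 T and NK cell markers 3 fell (42.9%) and none rose, with sums of 40.4 to 75.4 against 65.2 to 85.4. Kupffer cell and macrophage markers, of which 1 of 8 rose (12.5%, below the share of all genes) and none fell, ranged from 113 to 284 in PVBL and 145 to 165 in sham. Among the called markers, Top2a and Krt7 entered the test only through their PVBL signal. Cd8a and Cftr entered it only through their sham signal, so the calls of these genes are no support. PVBL 3 was the highest PVBL sample for the sums of Kupffer cell and macrophage (284), stellate (151), sinusoidal endothelium (90.8), cholangiocyte (21.8) and neutrophil (20.8) markers. It was the lowest for the hepatocyte (4834), T and NK cell (40.4) and proliferation (101) sums. Cd4, which weighs most in the T and NK cell sum, was at 6.02, 6.00 and 4.96 in PVBL 1 to 3. Of the other T and NK cell markers tested, Cd3e was also lowest in PVBL 3. Cd3d, Cd3g and Gzma were highest in PVBL 3 among the PVBL samples, and Nkg7 and Cd8a lay in between. Among the carriers tested, PVBL 3 was the highest PVBL sample for Slc7a1, Slc43a2, Slc7a7, Slc38a1, Slc7a8, Slc1a5, Slc38a2, Slc36a4, Slc6a9 and Slc38a6. It was lowest for every hepatocyte uptake carrier, both mitochondrial carriers, Slc3a1, Slc3a2, Slc1a4, Slc38a5, Slc38a9, Slc38a10 and Slc7a5 (PVBL 2 and 3 only). The part of these cell types in the carrier results was not tested.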

How the data were processed

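Right-lobe liver RNA of 3 PVBL and 3 sham samples was measured on single-colour arrays (design 028005, probes annotated on mm9). Per the file headers, intensity values per spot were made by Agilent Feature Extraction 10.7.3.1 and were already background-corrected; the submitters' processing notes name version 9.1. The deposited value table holds log2 values centred on each probe, in rows chosen on the difference between the groups, and was used only as an alternative. A call in it is therefore no support for a difference.

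Control spots (3671) and outlier spots (115 to 201 per array) were left out, replicate spots were averaged per probe, and log2 signals were scaled to the 75th percentile of each array. Signal at that percentile was 331 to 407 in PVBL and 203 to 315 in sham, 48.0% to 53.6% of probes were well above background, and the number of arrays limits precision. Names came from RefSeq accessions (GRCm38.p6, names and promoter windows only) for 26413 of 55681 probes. The brightest tested probe stood for a gene, and 13582 genes were fitted with limma 3.58.1 (R 4.3.3; lmFit and eBayes, two-sided, Benjamini-Hochberg, threshold 0.05), after a check on simulated data. The normexp alternative (offset 50) used median spot signals in place of the planned mean signals. Alternatives were 3 other scalings, normexp, 2 filters, averaging probes, the deposited table, array weights, the replicate block and leaving out each array.

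Members, role groups, related lists and markers were chosen with earlier results of these data known. Values on every array are given for called carriers (up to 16 by difference) and 11 carriers listed by name. Related lists give up to 5 called genes per direction and Slc7a11, Atf4, Asns, Gls2 and Glul. Genes whose values are given beyond this were chosen after their values were seen. 1 gene of the related lists is not reported here.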

Additional observations from a re-analysis of the deposited data

How the results depend on the processing

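The 4476 genes called became 1800 with spike-in scaling and 2391 to 4782 with 1 array left out, with the lowest counts without sham 1 (2391) and sham 2 (2844). The 3 carriers called higher became 6 with median scaling, 5 with quantile normalization, 5 with array weights and 1 to 5 with 1 array left out. Slc38a5, which entered the test only through its PVBL signal, is among those called higher in these 3 settings and without PVBL 3. With no filter on dim probes 2 carriers were called higher, Slc1a5 and Slc7a9, and the signals of Slc7a9 were near background. The 7 called lower became 0 with spike-in scaling and 3 to 7 with 1 array left out. Same-numbered samples had deviations that correlated at 0.167, -0.0634 and 0.185, so the numbers were not taken to pair the samples; with the replicate number as a block 3804 genes, 3 carriers higher and 6 lower were called, and Slc38a10 alone among the 10 lost its call, as did Slc25a38, Farsa and Cars of the related lists (adjusted p = 0.0590, 0.0887 and 0.0698). Signs that turned concern uncalled genes. With spike-in scaling the values were 0.088 for Slc43a1, 0.0273 for Slc16a10, 0.12 for Slc25a13, 0.20 for Slc25a15, 0.18 for Slc38a7, 0.0012 for Slc38a9, 0.27 for Slc7a8, 0.31 for Slc6a6, 0.0931 for Slc38a6 and 0.0146 for Atf4. Slc36a1 was at -0.12 with probes averaged and -0.53 in the deposited table, Slc7a5 at 0.0219 with probes above background on all arrays (another probe then stood for it), Slc38a1 at -0.14 with array weights, Slc6a6 at 0.0122 with median scaling and Slc38a5 at -0.0217 with normexp. With 1 array left out Slc38a1 ran from -0.45 to 0.49, Slc7a8 from -0.78 to 0.20, Slc6a6 from -0.31 to 0.073, Slc6a9 from -0.0183 to 0.27 and Slc6a13 from -0.0054 to 0.0598. Where not stated, the cause was not tested. Of the carriers only 8 had a row in the deposited table, which limits what it shows, and 5 could not be tested because their signals were near background.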

Other observations

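The machinery through which amino acids act on mTORC1 had more falls than rises. Of 33 genes of this list tested 2 rose and 9 fell, with a median of -0.23. The shares were 6.06% and 27.3%, against 15.1% and 17.8% of all genes, and the total of 33.3% was near the 33.0% of all genes. Flcn, Fnip1 and Fnip2, whose products form the folliculin complex that answers to amino acids at the lysosome, fell 2.02-fold, 2.01-fold and 2.56-fold (adjusted p = 0.0143, 0.00484 and 0.00258), and Tsc1, a brake on mTORC1, fell 2.03-fold (adjusted p = 0.00410). Bmt2, a sensor of S-adenosylmethionine, fell by 0.72 (adjusted p = 0.00526). Mlst8, a subunit of mTORC1, rose 1.90-fold (adjusted p = 0.00354) under all 16 alternatives. Sec13 rose by 0.56 (adjusted p = 0.0477) but was not called without any 1 sham array (0.51 to 0.60), PVBL 1 (0.54) or PVBL 2 (0.41). The call of Sec13 was also lost with spike-in scaling (0.99) and with no filter on dim probes. The 5 falls named lost their calls with spike-in scaling, and that of Flcn also without sham 1 (-0.94).

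The cytosolic aminoacyl-tRNA synthetases, which load amino acids onto tRNA, had 5 rises and no fall among 18 tested (median 0.22). The share called higher was 27.8%, against 15.1% of all genes, and the share called either way was below the 33.0% of all genes. Vars, for valine, rose 3.03-fold (1.60 ± 0.13, adjusted p = 0.000310), Rars, for arginine, 1.74-fold (0.80 ± 0.14, adjusted p = 0.00586), and both were called under all 16 alternatives. Gars, for glycine, rose 1.52-fold (adjusted p = 0.0104) and was not called with spike-in scaling (1.03). Farsa and Cars, for phenylalanine and cysteine, rose by 0.41 and 0.39 (adjusted p = 0.0452 and 0.0314), and their calls were lost without any 1 sham array, PVBL 1 or PVBL 2 (0.34 to 0.45 for Farsa and 0.37 to 0.41 for Cars), with spike-in scaling (0.84 and 0.83), with the replicate number as a block and with no filter on dim probes.

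A pair of carriers, chosen after their values were seen, had signal on PVBL 3 alone. Slc1a1, which takes up glutamate and cysteine, had levels of -6.15, -5.82 and -3.24 in PVBL 1 to 3 and -6.31, -6.21 and -6.03 in sham 1 to 3. Slc7a11, which takes up cystine in exchange for glutamate, had levels of -6.38, -5.94 and -2.63 in PVBL 1 to 3 and -6.46, -6.36 and -6.08 in sham 1 to 3. Each was well above background on PVBL 3 and on none of the other 5 arrays. Other carriers of these amino acids had no such signal: Slc1a2, for glutamate, was lower on PVBL 3 (2.42) than on PVBL 1 and 2 (3.66 and 3.89), Slc1a3, for glutamate, was at -6.67 and Slc7a9, for cystine, at -4.61 on PVBL 3. These are values of 1 array with no replicate, and their cause was not tested.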
